A study of Mus musculus with 2 samples.

Results

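The genes of DNA replication and nucleotide supply were compared between dendritic cells (DCs) cultured with IL-27 and DCs cultured with vehicle. They are 39 genes, fixed by symbol, out of the 19935 genes that the array's annotation names through a probe set of 1 gene. All 39 were measured, and a gene with several probe sets (Pcna and Tk1) was read from the one with the highest mean level. The cells were primary splenic DCs, isolated by flow cytometry from wild type C57BL/6 mice aged 8 weeks. One sample was treated with IL-27, a cytokine of the IL-12 family, and the other with vehicle, for a time the labels write as "ON", and each was read on 1 array of biotin-labelled material. With 1 array a condition, each difference is between 2 arrays, lacks a replicate check and carries no SD or p-value. Neither the number of mice or cultures behind a sample nor the surface markers used for sorting is in the labels.

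A cell copies its genome once per division. In the G1 phase the origin recognition complex, Cdc6 and Cdt1 load the ring-shaped Mcm2 to Mcm7 helicase on DNA, which is called licensing. At the start of S phase Mcm10, Cdc45 and the GINS complex turn the loaded rings into active helicases, primase and DNA polymerases alpha, delta and epsilon copy the strands with the clamp Pcna and its loader, and ribonucleotide reductase, thymidylate synthase and thymidine kinase supply the deoxynucleotides. E2F transcription factors, held in check by the retinoblastoma family, switch many of these genes on. Splenic DCs are partly renewed by division of DCs in the tissue, and most fully mature DCs do not divide.

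E2F factors bind sites of the form TTTCCCGC, TTTCGCGC, TTTGCCGC or TTTGGCGC, and the members' promoters were read to show what the members share outside expression. These 4 octamers were looked for on both strands in RefSeq promoter windows of 300 bases (250 before and 50 from the start site, build GRCm38.p6). Windows were given for 33 of the 39 genes, and Mcm4, Gins1, Gins2, Pole, Prim2 and Rfc2 are named only. An octamer stood in the promoter of 15 of the 33 members (45.5%), against 2.6% of the 27025 genes with a window and 4.5% of the genes on the array over the level minimum defined below. It stood in the promoters of 4 of the 5 genes of Mcm2 to Mcm7 that had a window. A match is a description of letters, not a measured binding site.

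The windows of 3 members are printed whole, with the octamers on either strand in capitals: Mcm6 holds the most sites (3, of which the first pair overlap), Pole2 had the most negative difference as deposited, and Cdt1 had the difference nearest to 0 among members over the level minimum.
Mcm6 (chr1:128359656-128359955, minus strand): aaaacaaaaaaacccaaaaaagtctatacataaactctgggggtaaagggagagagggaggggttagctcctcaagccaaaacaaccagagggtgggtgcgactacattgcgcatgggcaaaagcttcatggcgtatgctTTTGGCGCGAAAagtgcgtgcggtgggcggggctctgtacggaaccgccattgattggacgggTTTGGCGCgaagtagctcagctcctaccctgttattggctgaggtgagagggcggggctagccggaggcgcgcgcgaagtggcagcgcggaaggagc
Pole2 (chr12:69228141-69228440, minus strand): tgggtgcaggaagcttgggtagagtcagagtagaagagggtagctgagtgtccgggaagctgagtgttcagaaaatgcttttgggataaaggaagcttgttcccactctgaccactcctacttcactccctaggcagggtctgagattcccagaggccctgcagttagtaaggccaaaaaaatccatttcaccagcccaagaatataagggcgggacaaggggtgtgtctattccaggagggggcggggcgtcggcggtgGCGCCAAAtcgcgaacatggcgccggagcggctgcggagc
Cdt1 (chr8:122567765-122568064, plus strand): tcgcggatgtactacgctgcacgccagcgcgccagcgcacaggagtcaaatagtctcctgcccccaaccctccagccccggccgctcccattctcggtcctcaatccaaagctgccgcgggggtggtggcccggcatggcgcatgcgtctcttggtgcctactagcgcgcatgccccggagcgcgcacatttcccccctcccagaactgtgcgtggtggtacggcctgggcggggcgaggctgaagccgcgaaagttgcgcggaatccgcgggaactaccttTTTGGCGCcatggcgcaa

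Shorter stretches show 3 of the other members with 2 octamers, with 12 bases on each side where the window allowed it. Those of Mcm5 overlap each other, and those of Mcm3 and Rfc3 are separate.
Mcm3 (chr1:20820263-20820305, minus strand): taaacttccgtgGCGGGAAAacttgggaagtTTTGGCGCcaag
Mcm5 (chr8:75109344-75109379, plus strand): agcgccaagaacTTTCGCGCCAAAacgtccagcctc
Rfc3 (chr5:151651189-151651230, minus strand): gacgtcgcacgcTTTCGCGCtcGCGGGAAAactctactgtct

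Values below are deposited intensities on a linear scale, and differences are log2, IL-27 minus vehicle. A gene was called lower or higher by a rule of size, a difference of 2-fold or more and a value of 96.2 or more on at least 1 array, which is the median of the values of both arrays and is here called the level minimum. Genes not expected in DCs give the floor of what can be read: 95% of the 1027 olfactory receptor genes measured lay at or below 129 on the IL-27 array and 77.3 on the vehicle array. For a called gene that did not exceed this limit on the IL-27 array, the fold uses the limit in place of the IL-27 value and is written as "at least". The probe sets are not corrected for how well each binds, so levels of different genes are not set against each other.

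All 39 replication genes had a lower value on the IL-27 array as deposited, as had 70.9% of the 11140 genes over the level minimum. By the rule of size 17 of the 39 were lower and 0 higher. Of the 11140 genes 13.2% were lower and 1.52% higher, and of all genes with no level filter 7.42% were lower. Of the members, 37 passed the level minimum, all but Orc1 and Gins1. For 8 of the 17 the IL-27 value lay at or below the olfactory limit, and against the limit 12 of the 39 were still 2-fold lower (10.2% of genes over the level minimum). The median difference over all 39 was -0.90, a 1.86-fold lower level, against -0.34 over all genes at that level. The lower members were Mcm2 to Mcm7, Pole, Pole2, Prim1, Prim2, Pola2, Pold2, Rfc2, Rfc4, Rrm1, Rrm2 and Chaf1b. In bulk samples, fewer cells in cycle and less of these RNAs per cell cannot be told apart.

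**Figure D1:**
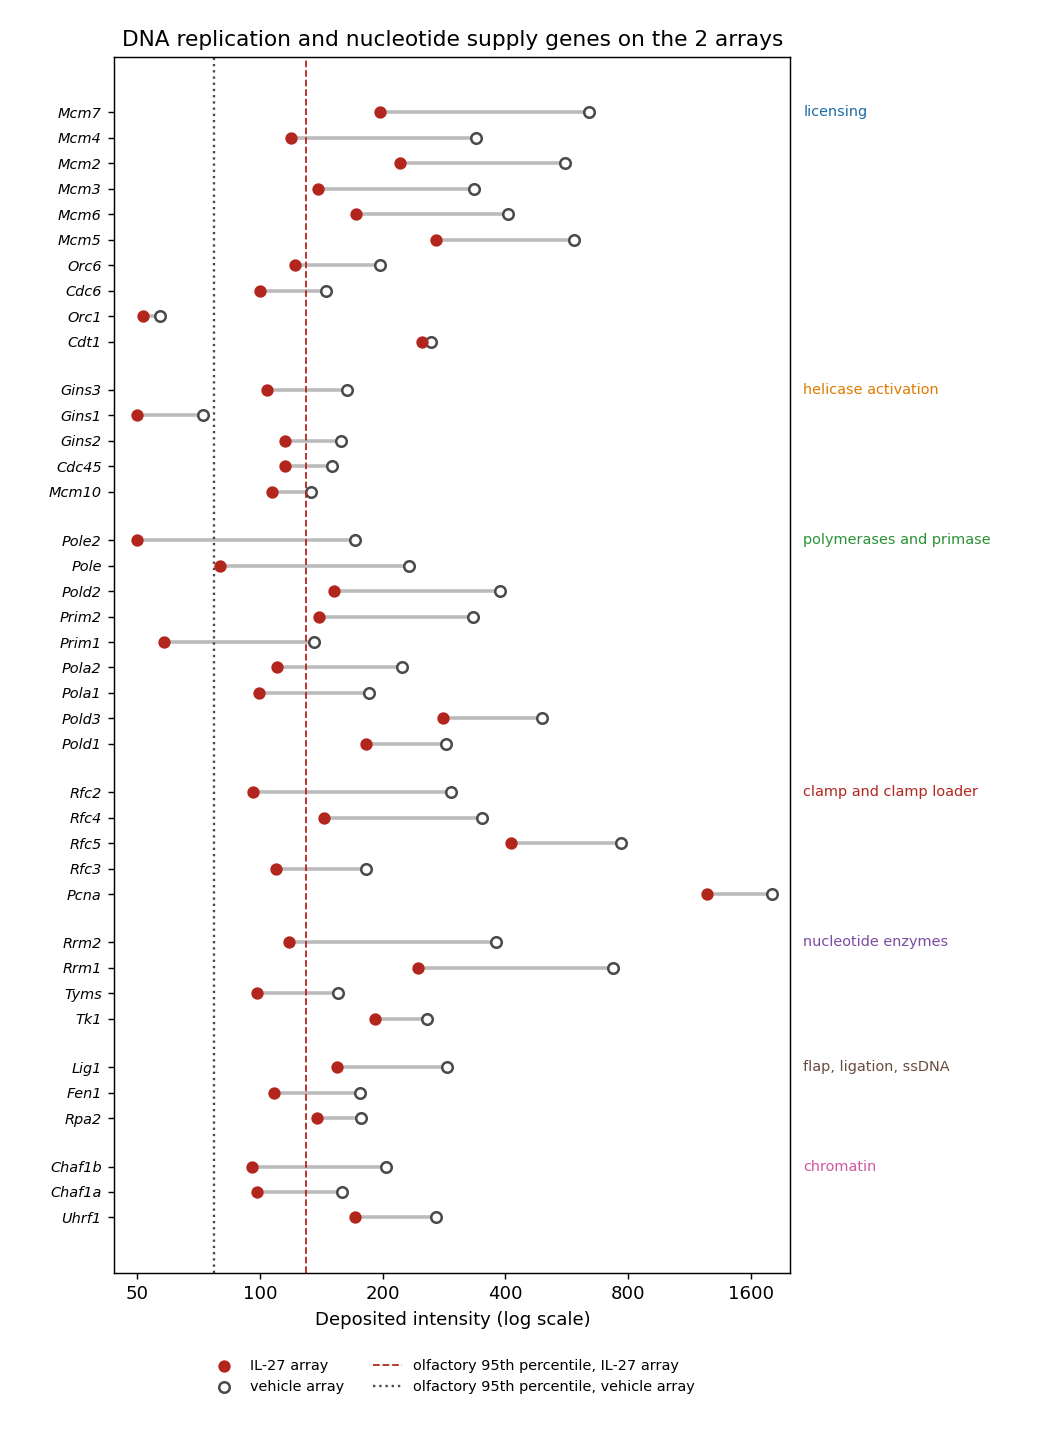
Deposited intensity (log scale) of each of the 39 genes on the IL-27 array (filled) and the vehicle array (open), grouped by role, with the 95th percentile of olfactory receptor genes on each array as a line. Every IL-27 value lies left of its vehicle value, and 21 of the 39 IL-27 values lie at or below the IL-27 line at 129.

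How far a gene differed depended on its level over the whole array, which bears on these genes because most lie in the middle of the range. Across 20 bins of mean level, the median difference of all genes was -0.57 in the bin near 263 and 0.03 in the bin near 105.7. Among all genes in the middle level range of the members (geometric mean of both arrays from 133 to 235), 447 of 2970 were lower, or 15.1%, with a median of -0.43. Of the members in that same range, 9 of 19 were lower, with a median of -0.90. With a lowess curve of the difference on level subtracted, the median of the 39 was -0.56, 37 of them were below 0 (50.3% of all genes over the level minimum were), 8 were 2-fold lower (5.33% of genes were) and 0 were 2-fold higher (3.06% of genes were). These 8 were Mcm4, Mcm7, Prim1, Pole, Pole2, Rfc2, Rrm1 and Rrm2. Cdt1 and Tk1 were above 0 on that scale, at 0.44 and 0.06. For Tk1 this holds for its brighter probe set. The dimmer one had a lower deposited difference (-0.70 beside -0.42), and its value on that scale was not computed.

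**Figure D2:**
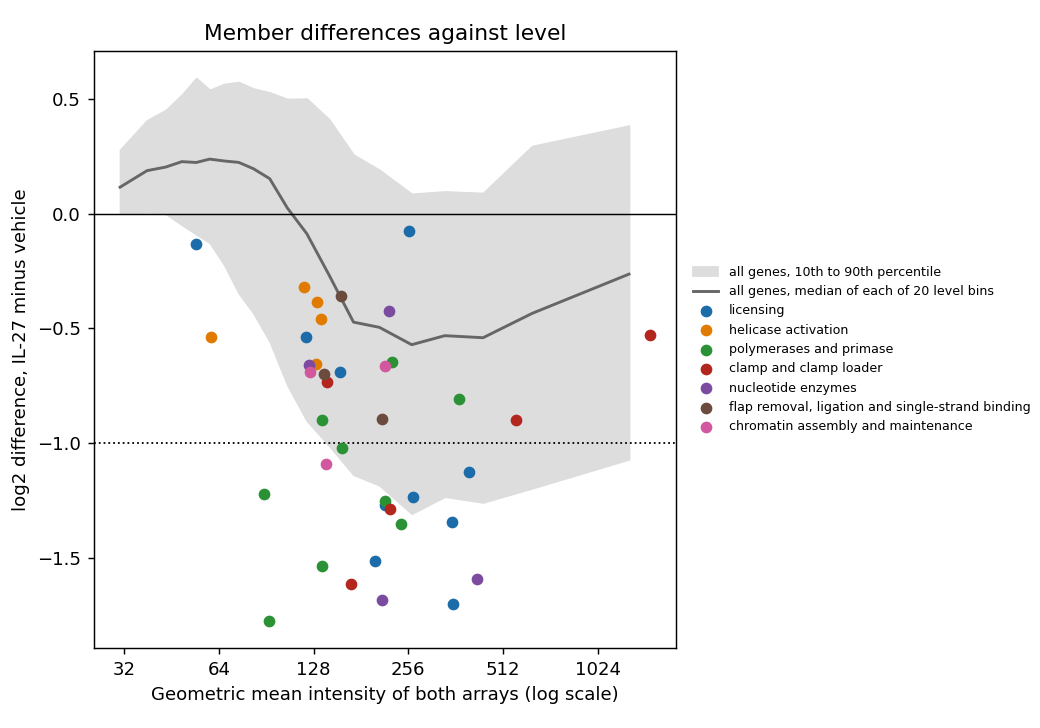
Difference (log2, IL-27 minus vehicle) against the geometric mean intensity of both arrays (log scale) for the 39 genes, coloured by role, over the median and the 10th to 90th percentile of all genes in 20 level bins. The members lie mostly below the grey median curve, Cdt1 and Tk1 lie above it, and Rpa2 lies about on it.

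Of the licensing genes, all 6 helicase subunits were lower by the size rule, and none of Orc1, Orc6, Cdc6 and Cdt1 was. The share of genes over the level minimum that were lower was 13.2%. Mcm7 (probe set 10534974) had an intensity of 197 with IL-27 and 640 with vehicle, 3.25-fold lower. Mcm4 had 119 with IL-27 and 339 with vehicle, at least 2.62-fold lower. Mcm2 had 221 with IL-27 and 560 with vehicle, 2.54-fold lower. The other helicase subunits differed by a little less. Mcm3 had 139 and 335, Mcm6 172 and 406, and Mcm5 270 and 589 on the IL-27 and vehicle arrays, which is 2.41-fold, 2.36-fold and 2.18-fold lower. The 6 differences ran from -1.70 to -1.13. With the level trend removed they ran from -1.18 to -0.62, and of the 6 calls those of Mcm4 and Mcm7 stayed.

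The loaders Cdc6 and Cdt1 and the 2 origin subunits among the members lay nearer to 0. Cdt1, which brings the helicase to the origin and is held off by geminin after licensing, had 250 with IL-27 and 264 with vehicle, a difference of -0.08. Cdc6, the ATPase that loads the ring, had 100.2 with IL-27 and 145 with vehicle (-0.54). Orc6, a subunit of the origin recognition complex, had 122 with IL-27 and 197 with vehicle (-0.69), and Orc1, its ATPase subunit that is made and destroyed within each cycle, had 51.8 and 56.8, which is within the range of olfactory receptor genes on both arrays. As deposited, the lower and upper quartiles of all genes over the level minimum were -0.73 and 0.09. The differences of Cdt1, Cdc6, Orc6 and Orc1 lay between these quartiles, and those of the helicase subunits lay below the lower one. The differences of these 4 did not overlap with those of the helicase subunits, as deposited or with the level trend removed (-0.44 to 0.44). No test of that gap was possible. The gap does not extend to the whole origin complex. Orc3 and Orc5, subunits outside the 39, were lower by the size rule at -1.04 and -1.09, and with the level trend removed they were at -0.52 and -0.92, the second of which lies inside the helicase range. On the IL-27 array Cdc6, Orc6 and Orc1 lay at or below the olfactory limit, so a larger deficit there would not be seen.

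The members that turn the loaded ring into a helicase did not pass the size rule. Of the 5 none was lower, where 13.2% of genes over the level minimum were. The median of the 5 was -0.46. Gins3 had 104 with IL-27 and 164 with vehicle (-0.66), Gins2 had 115.0 and 158 (-0.46), and Gins1 50.1 and 72.7 (-0.54), the last within the olfactory range on both arrays. Cdc45, the helicase's partner in the active complex, had 115 with IL-27 and 150.3 with vehicle (-0.38), and Mcm10, which helps to activate the ring, 107 and 134 (-0.32). All 5 IL-27 values lay at or below the olfactory limit, so against that limit a 2-fold difference could not be read. The size rule itself used the deposited values. Gins4, the remaining GINS subunit and no member, was lower, with 153 and 355 (-1.21). With the level trend removed it was at -0.72, short of the size rule.

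Of the 9 polymerase and primase genes 6 were lower, with a median of -1.22, and against the olfactory limit 2 were. The shares of genes over the level minimum were 13.2% as deposited and 10.2% against the limit. Pole2 (probe set 10400649), the second subunit of polymerase epsilon, which copies the leading strand, had 50.05 with IL-27 and 171 with vehicle, a difference of -1.77. Since the IL-27 value lay below the olfactory limit, this is at least 1.32-fold lower. Pole, the catalytic subunit, had 80.0 with IL-27 and 232 with vehicle (-1.54), at least 1.79-fold lower. Pole and Pole2 thus exceeded the olfactory limit on the vehicle array alone.

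The enzyme that starts each strand, polymerase alpha with primase, had 3 of 4 genes lower, beside 13.2% of genes over the level minimum. Prim2, the large primase subunit, had 140 with IL-27 and 333 with vehicle, 2.38-fold lower. Prim1, the catalytic primase subunit, had 58.2 with IL-27 and 136 with vehicle (-1.22), at least 1.05-fold lower, so that against the limit little of its difference is fixed. Pola2, the accessory subunit, had 110 with IL-27 and 224 with vehicle, at -1.02 just inside the size rule and at least 1.73-fold lower, whereas Pola1, the catalytic subunit, had 99.3 and 185, at -0.90 just outside it.

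Polymerase delta, which copies the lagging strand, had 1 of 3 genes lower, beside 13.2% of genes over the level minimum. Pold2 had 152 with IL-27 and 388 with vehicle, 2.56-fold lower. The catalytic gene Pold1 had 182 with IL-27 and 286 with vehicle (-0.65), and Pold3 281 and 492 (-0.81). The subunits of delta lay above the olfactory limit on both arrays, so their differences are read without that bound.

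The sliding clamp differed less than parts of its loader. Pcna, the ring that holds the polymerase on DNA, had 1247 with IL-27 and 1799 with vehicle, 1.44-fold lower, and its other probe set gave a like difference (-0.51 beside -0.53). Rfc2 had 96.1 with IL-27 and 294 with vehicle (-1.61), at least 2.27-fold lower, and Rfc4 had 144 and 351 (-1.29), 2.44-fold lower. Rfc5 and Rfc3, the other loader subunits among the members, were short of the size rule. Rfc1, a loader subunit that is no member, was lower (-1.14). Rfc5 had 412 with IL-27 and 769 with vehicle (-0.90), and Rfc3 had 110 and 182 (-0.73). The IL-27 value of Rfc3 lay below the olfactory limit.

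Among nucleotide enzymes, both subunits of ribonucleotide reductase were lower and the thymidine enzymes were not. Rrm2 (probe set 10394978), the small subunit made in S phase, had 118 with IL-27 and 379 with vehicle (-1.68), at least 2.93-fold lower. Rrm1, the large subunit, had 244 with IL-27 and 737 with vehicle (-1.59), 3.02-fold lower. Both calls stayed with the level trend removed (-1.21 and -1.09). Tyms, thymidylate synthase, had 98.4 with IL-27 and 155 with vehicle (-0.66). Its IL-27 value lay below the olfactory limit, so against that limit a 2-fold difference could not be read for Tyms. Tk1, the cytosolic thymidine kinase, exceeded the limit on both arrays. It had 192 with IL-27 and 257 with vehicle (-0.42), and its dimmer probe set differed by -0.70.

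The genes that cover single strands, join and package the new ones or guide their methylation had 1 of 6 lower by the size rule. Among all genes over the level minimum 13.2% were lower. Of the 6, 3 (Fen1, Chaf1a and Chaf1b) had IL-27 values at or below the olfactory limit, where a larger deficit would not be seen. Lig1, the ligase that joins lagging-strand fragments, had 154 with IL-27 and 287 with vehicle (-0.90). Fen1, which cuts the flaps between fragments, had 108 with IL-27 and 176 with vehicle (-0.70), and Rpa2, of the complex that covers single strands, 138 and 177 (-0.36). None of these 3 passed the size rule. Of the chromatin genes, Chaf1b, a subunit of the histone chaperone that follows the clamp, was lower, with 95.8 with IL-27 and 204 with vehicle (-1.09), at least 1.58-fold. Its partner Chaf1a had 98.4 and 159 (-0.69), and Uhrf1, which guides DNA methylation to new strands, had 171 and 271 (-0.66).

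**Figure D3:**
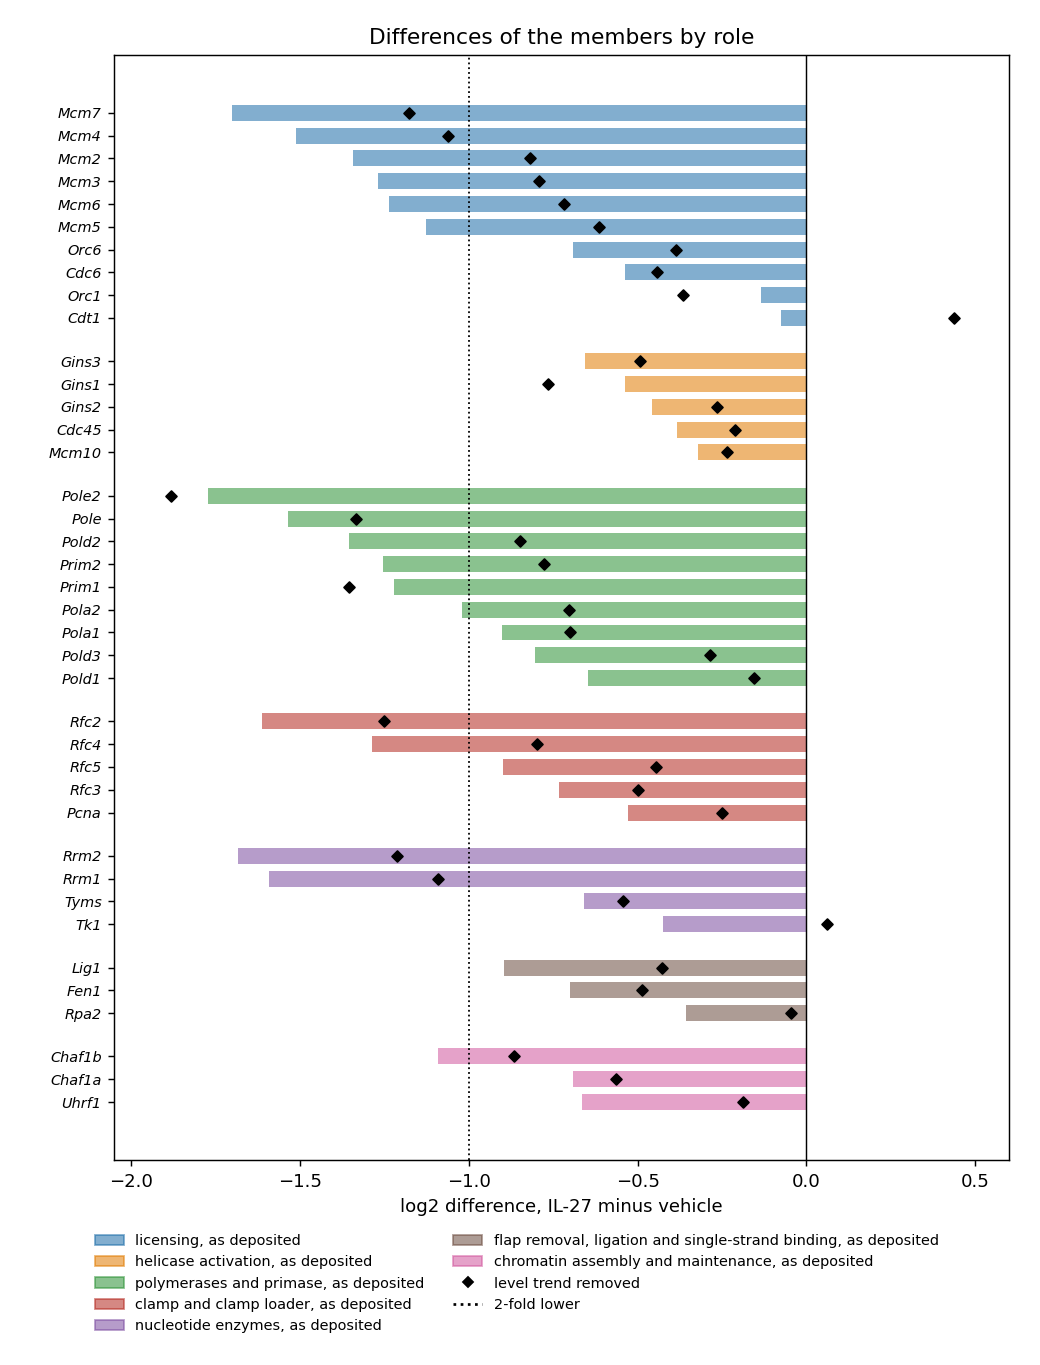
Difference (log2, IL-27 minus vehicle) of each of the 39 genes by role, as deposited (bars) and with the level trend removed (diamonds), with the 2-fold line at -1. All bars point to lower values with IL-27, the 6 helicase subunits pass the line and the 5 helicase activation genes do not.

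The remaining origin and fork genes, set beside the members as a separate list of 34 measured genes, had 13 lower and 0 higher, and a median difference of -0.81, where 13.2% of genes over the level minimum were lower. The count was 7 with quantile normalization and 4 with the level trend removed. Dna2, a nuclease and helicase of fragment processing, was 2.88-fold lower, with 203 with IL-27 and 585 with vehicle. Dbf4, the activator of the kinase Cdc7 that fires origins, was at least 1.96-fold lower (-1.49), while Cdc7 itself and the licensing inhibitor Gmnn lay in the olfactory range on both arrays. Top2a, which untangles DNA, was 2.70-fold lower (-0.91 on the log2 scale after the trend was taken out, short of the size rule, and its dimmer probe set, in the olfactory range on both arrays, differed by -0.11), and the maintenance methyltransferase Dnmt1 2.42-fold lower (-1.28, or -0.75 with the level trend removed, short of the size rule). Other subunits of the members' complexes lay on both sides of the 2-fold line. Beside Orc3 and Orc5, Orc2 and Orc4 had differences of -0.74 and -0.68, Rfc1 -1.14 and Rpa1 -1.02, and the 2 probe sets of Rpa3 disagreed, at -0.58 and -1.32. With the level trend removed Rfc1 and Rpa1 were at -0.70 and -0.51, so that none of Orc3, Orc5, Rfc1 and Rpa1 was then 2-fold lower. The IL-27 values of Orc2 and Orc5 lay at or below the olfactory limit, and Orc5 was at least 1.47-fold lower. Top1 had 595 with IL-27 and 432 with vehicle, a difference of 0.46.

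Of 25 other nucleotide supply genes 5 were lower and 1 was higher, with a median of -0.52. The shares among all genes at that level were 13.2% and 1.52%. Subtracting the trend left 1 lower (Tk2) and 2 higher (Mthfd2 and Shmt2). Median centring gave 8 lower and quantile normalization 3. Tk2, the mitochondrial thymidine kinase, had 93.6 with IL-27 and 390.4 with vehicle (-2.06), at least 3.02-fold lower, and Dguok, the mitochondrial deoxyguanosine kinase, 239 and 620 (-1.38), 2.59-fold lower, or -0.86 with the level trend removed and then short of the size rule. Mthfd1, the cytosolic folate enzyme, was at least 1.80-fold lower (-1.21, and -0.91 after the trend was taken out). Its mitochondrial relative Mthfd2 was the higher gene, with 1248 with IL-27 and 534 with vehicle (1.23), 2.34-fold higher, and the mitochondrial serine enzyme Shmt2 had 372 and 232 (0.68). Samhd1, which breaks down deoxynucleotides in myeloid cells, had 1546 and 2752 (-0.83). Rrm2b, the reductase subunit used outside S phase, had 108 and 132 (-0.29). Its IL-27 value lay below the olfactory limit of 129, so against that limit a 2-fold difference could not be read.

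Regulators of entry into S phase had 9 of 30 lower and 0 higher, and a median difference of -0.86, where 13.2% of genes over the level minimum were lower. Subtracting the trend gave a count of 4, and median centring one of 14. Rbl1, the retinoblastoma relative p107, was 3.87-fold lower, with 138 with IL-27 and 534 with vehicle (-1.95). Ccnd1, cyclin D1, had 717 and 2312 (-1.69), 3.22-fold lower, and Myc, a driver of growth, 218 and 600.2 (-1.46), 2.75-fold lower, or -0.94 with the level trend removed and then short of the size rule. E2f8, a repressor of the family, was at least 2.03-fold lower (-1.62). The activators E2f1 and E2f2 had differences of -0.64 and -0.50, with IL-27 values not above the olfactory limit, and E2f4, the family member of resting cells, had 401 and 461 (-0.20, or 0.30 with the level trend removed). Cdkn1b, the inhibitor p27, differed by -0.91 by its brighter probe set and -1.73 by the other. Cdkn1a is named by no probe set of 1 gene and is not analysed.

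Of 24 measured mitosis genes 15 were lower and none was higher, and the median difference was -1.24, beside -0.90 for the replication genes. With the level trend removed 11 were 2-fold lower. On the IL-27 array 17 of the 24 lay at or below the olfactory limit. Against the limit 10 were 2-fold lower and the median was -0.68, beside -0.65 for the replication genes. Ccna2, cyclin A2, had 130 with IL-27 and 488 with vehicle (-1.91), 3.77-fold lower. Kif23 and Bub1, of the midbody and the spindle checkpoint, were at least 3.67-fold and 2.44-fold lower, Kif11, a spindle motor, at least 3.05-fold. Mki67, the common marker of cycling cells, had 299 with IL-27 and 800 with vehicle, 2.68-fold lower. Checkpoint and fork repair genes had a median of -0.52 with 3 of 17 lower, namely Atr, Msh6 and Hus1, the first 2 at least 1.52-fold and 1.34-fold lower, beside the 13.2% of genes that were lower. Of the 17, 14 had IL-27 values at or below the olfactory limit, and against it 1 (Hus1) was 2-fold lower and the median was 0. Whether any of these lists differs from the replication genes was not tested, since genes are not replicates.

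**Figure D4:**
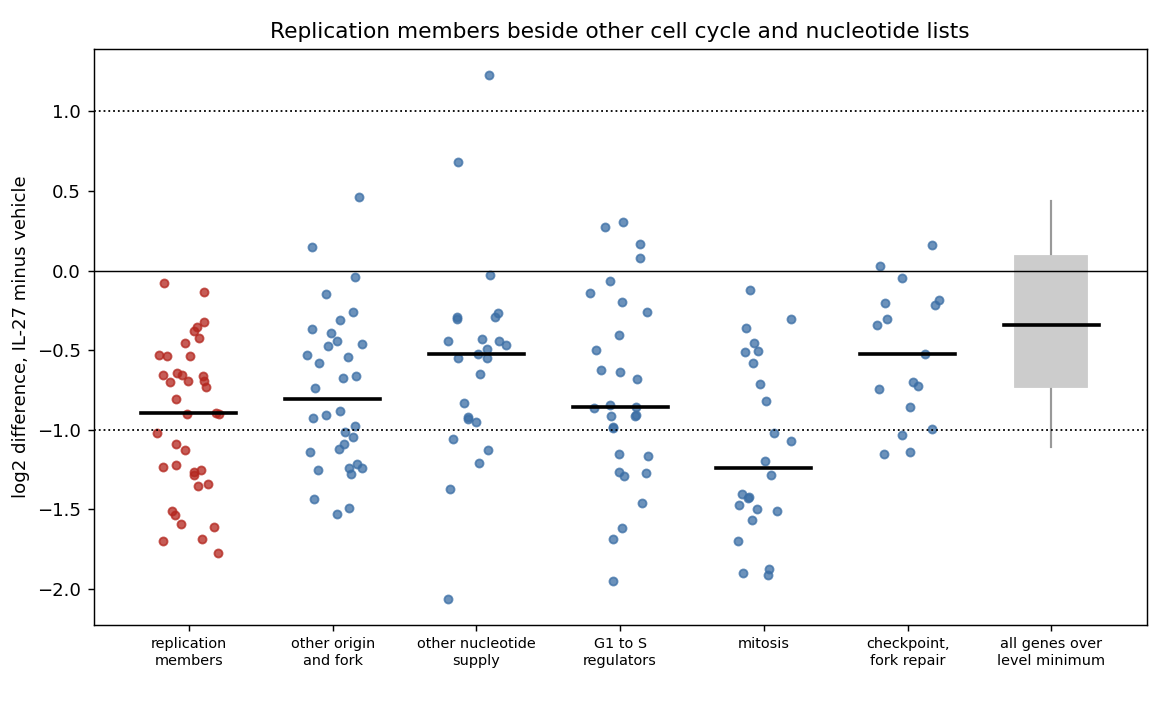
Difference (log2, IL-27 minus vehicle) of each gene of the replication members (red) and of 5 other lists (blue), with the list's median as a bar, beside the median, the middle 50% (box) and the 10th to 90th percentile (line) of all genes over the level minimum. The medians run from -0.52 to -1.24, and the median of all genes is -0.34.

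Of 14 markers of the labelled cell type, all exceeded the olfactory limit on both arrays. Itgax, which encodes CD11c, had 1829 with IL-27 and 3371 with vehicle, and the class II gene H2-Ab1 had 8222 and 8357. By the size rule 4 were lower and 0 higher, where 13.2% and 1.52% of genes over the level minimum were. Kmo had 253 with IL-27 and 1243 with vehicle, 4.92-fold lower, and Xcr1 was 2.82-fold lower. Flt3 had 851 and 1796, and Dpp4 804 and 1718, 2.11-fold and 2.14-fold lower. These are genes of conventional DCs or of their cross-presenting subset. With the level trend removed Kmo and Xcr1 stayed 2-fold lower (5.33% of genes were), and Flt3 and Dpp4 (-0.76 and -0.77) did not. The other 10 markers passed the rule in neither direction, among them Clec9a (-0.59), Batf3 (-0.77), Irf8 (-0.67) and Zbtb46 (-0.02). Of the 14 markers 3 had a difference above 0, Irf4 (0.40), H2-Aa (0.12) and Cd74 (0.07). Macrophage and monocyte markers were lower alongside the replication genes. Of 14 such markers 11 were lower and 0 higher, and their summed intensity was 15101 with IL-27 and 36651 with vehicle. The part of macrophages in the lower replication values was not tested. B cell and plasma cell markers had 2 of 11 lower and 1 higher, beside the 13.2% and 1.52% of genes. Their sums were 3268 with IL-27 and 3678 with vehicle, of which Xbp1 alone gave 1422 and 1174. The 2 lower were Ms4a1 (-1.11) and Cd22 (-1.68, at least 3.05-fold lower). The higher was Ighm (1.26, and 0.07 and 0.74 by its other probe sets). Of 8 erythroid markers, all lay at or below the olfactory limit on the IL-27 array and 2 did on the vehicle array, and of 11 T and NK cell markers 10 and 7 did. Klrk1, the T and NK cell marker above the limit on the IL-27 array, was the 1 lower gene of its list. It had 135 with IL-27 and 287 with vehicle (-1.09, or -0.64 with the level trend removed). Tfrc, the transferrin receptor that dividing cells of many types carry, and Epor were the 2 erythroid markers that were lower (-1.37 and -1.03). They were at least 1.83-fold and 1.31-fold lower, and against the limit 0 of the 8 were 2-fold lower. Of these 8 markers 4 had a difference below 0 and 4 above 0. No value of any marker list was at 0, since the table holds no zero.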

How the data were processed

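Total RNA of 2 samples was labelled with the WT Terminal Labeling Kit of Affymetrix, per the labels' protocols. The authors deposited 28815 probe set intensities for each array, on a linear scale. How these were background-corrected, summarized and normalized is not given in the sources used, and the columns differ in distribution (median 98.9 with IL-27 and 92.4 with vehicle). The submitters' processing notes name build mm8. Log2 was taken with no pseudocount. GEO's platform annotation named 21780 probe sets by 1 gene, 1605 by several and the other 5430 not at all. A gene's probe set with the highest mean log2 was used. With 1 array a group there was no test, and precision is limited by the number of arrays. The calls by size were tested on simulated data, with shifts larger than 2-fold placed in brighter genes only. Most members lie below the level of those genes. The simulation therefore does not cover their calls, or differences near the 2-fold line.

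The members and lists were chosen with earlier results of these data known. Named genes were all members, the 4 largest differences of each other list over the level minimum and 14 further genes, of which Cdkn1a could not be read and 1 is not reported here. Orc2 to Orc5, Gins4, Rfc1, Rpa1, Rpa3, Top1, Shmt2, Rrm2b and the cell type markers named were chosen after their values were seen. Alternatives were quantile normalization, median centring, lowess trend removal (span 0.3), other level filters, 16 added to each intensity, a 1.5-fold rule and the mean of probe sets. A filter on mean level and raising the dimmer array to its olfactory limit were added after seeing the data. Python 3.11.15 with pandas 2.3.3 and statsmodels 0.14.6 was used.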

Additional observations from a re-analysis of the deposited data

How the results depend on the processing

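No paired analysis was possible because each condition has 1 array. The count of 17 lower members was 8 with the level trend removed and 29 with a 1.5-fold rule (33.7% of genes). It lay between 12 and 17 under the other 8 alternatives, at 12 with both arrays over the level minimum and 12 against the olfactory limit, and no member was higher under any of the 10. The median of the members lay between -0.99 and -0.56. The median of all genes over the level minimum turned from -0.34 to 0.042 with no level filter, which takes in the dim genes, and was -0.15 with quantile normalization, -0.45 with median centring and -0.003 with the level trend removed. Cdt1 turned to 0.24 with quantile normalization. Over all genes, 1468 were lower and 169 higher as deposited (10.3% of calls higher), 907 and 235 with quantile normalization (20.6%), 594 and 341 with the trend removed (36.5%), 3753 and 653 with a 1.5-fold rule, and 1191 and 97 with both arrays over the minimum. The size of the olfactory limit, 129 on the IL-27 array, sets what can be read of 21 members.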

Other observations

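Mcm7 hosts 3 miRNA genes within its RefSeq span, Mir106b, Mir93 and Mir25, whose probe sets were matched by accession. Mcm7 differed by -1.70 (log2, IL-27 minus vehicle), and these probe sets differed by 0.49, 0.41 and 0.14, where the median difference of the olfactory receptor genes was 0.46. Mir106b had an intensity of 109 with IL-27 and 77.5 with vehicle, Mir93 had 105 and 79.1, and Mir25 had 137 and 124. On the IL-27 array the values of Mir106b and Mir93 lay below the olfactory limit of 129, so neither is told there from genes not expected in DCs. The array was not made for mature miRNAs. The mature 5p arms of Mir106b and Mir93 share a seed (bases 2 to 8, in capitals), which the 3p arm of Mir25 does not.
mmu-miR-106b-5p: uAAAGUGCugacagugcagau
mmu-miR-93-5p: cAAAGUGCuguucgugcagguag
mmu-miR-25-3p: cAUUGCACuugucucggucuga

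The promoters of the lower members held an E2F-type octamer in 5 of 13 genes with a window (38.5%), and those of the other members in 10 of 20. Of 21 mitosis genes with a window 1 held one (4.76%), and 16 held the letters CCAAT on either strand (76.2%), against 20 of 33 members (60.6%) and 41.1% of all genes with a window.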
